A study of Arabidopsis thaliana with 15 samples.

Results

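The regions described here are the CG differentially methylated regions (DMRs) of germinating Arabidopsis thaliana seeds that lie apart from every CHG and CHH DMR. The study called DMRs separately in the CG, CHG and CHH contexts (H is A, C or T) over the whole time course, on the same libraries that are used here, so the members were selected on the methylation calls that are described below. Of 14888 CG DMRs, 4131 overlapped a CHG DMR and 3206 a CHH DMR by at least 1 bp, 1767 of them both. The other 9318 (62.6%) are the members, and 9017 of them had at least 20 CG calls in every library and were kept. Just outside the minimum 119 members had 19 calls in their shallowest library, and just inside it 120 had exactly 20.

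The libraries came from wild type Col-0 at 5 time points with 3 replicates each. Dry seeds (0 h) had been dried in the dark for 14 days. Stratified seeds (48 h S) had then spent 48 h at 4 °C, and the remaining seeds had been moved after stratification to 22 °C in continuous light. These were collected after 6 h of light (6 h SL), after 24 h of light (24 h SL) and after 48 h of light (48 h SL). The labels give the tissue as seed at 0 h, germinating seed at the intermediate times and seedling at 48 h SL, so that tissue and time cannot be told apart at the ends of the series. All seed came from a single batch of plants, and the study's methods call the replicates biological. Whole seeds and seedlings were used, hence a change in the mixture of cell types cannot be told apart from a change within cells.

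A CG site is palindromic, and its methylation is copied onto the new strand after replication by MET1. CHG methylation is maintained by CMT3, which reads a histone mark of silent chromatin. CHH methylation is set anew by CMT2 in heterochromatin or by DRM2 under the guidance of small RNAs (RNA-directed DNA methylation, RdDM). Transposons usually carry all 3 kinds, whereas the transcribed part of many long, steadily expressed genes carries CG methylation alone, called gene body methylation. A CG DMR without a non-CG DMR could therefore be either kind of locus.

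The sequences of 6 members show what these regions look like. They are the 3 largest rises and the 3 largest falls in CG level from 0 h to 48 h SL among members of at most 300 bp with at least 4 CG sites, touching no untranslated region (UTR), whose libraries at the 2 times did not overlap. Each is given 5′ to 3′ on the forward strand of TAIR10.1, with the CG sites in capitals.
ARLA1A: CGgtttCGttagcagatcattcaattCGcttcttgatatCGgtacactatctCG
ZFN2: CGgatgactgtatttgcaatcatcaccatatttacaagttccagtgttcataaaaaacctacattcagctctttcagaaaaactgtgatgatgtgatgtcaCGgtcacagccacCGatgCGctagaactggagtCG
SPH1: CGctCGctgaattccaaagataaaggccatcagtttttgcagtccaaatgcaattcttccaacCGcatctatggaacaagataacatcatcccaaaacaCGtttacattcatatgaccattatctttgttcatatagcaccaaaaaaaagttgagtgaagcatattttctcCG
DCL3: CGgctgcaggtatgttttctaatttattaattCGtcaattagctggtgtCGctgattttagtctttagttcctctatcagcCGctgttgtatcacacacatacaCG
AT5G17680: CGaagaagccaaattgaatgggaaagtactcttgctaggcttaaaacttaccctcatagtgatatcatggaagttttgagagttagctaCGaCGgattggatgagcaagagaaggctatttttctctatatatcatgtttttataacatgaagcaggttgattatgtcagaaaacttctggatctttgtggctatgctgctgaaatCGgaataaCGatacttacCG
AT2G27440: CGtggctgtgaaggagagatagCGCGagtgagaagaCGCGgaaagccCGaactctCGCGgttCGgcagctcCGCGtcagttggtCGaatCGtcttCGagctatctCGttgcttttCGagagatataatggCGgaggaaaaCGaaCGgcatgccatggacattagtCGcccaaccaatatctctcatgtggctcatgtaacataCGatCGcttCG

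The first 3 rose and the last 3 fell. ARLA1A (AT5G37680, chr5:14970074-14970126, coding sequence) encodes a small GTPase of the ADP-ribosylation factor-like family. ZFN2 (AT2G32930, chr2:13966614-13966748, coding sequence) is annotated as zinc finger nuclease 2, and SPH1 (AT4G16295, chr4:9215721-9215892, coding sequence) as S-protein homologue 1. DCL3 (AT3G43920, chr3:15756894-15756998, mainly intron) encodes the Dicer-like enzyme that cuts the small RNAs of RdDM. AT5G17680 (chr5:5824258-5824482, coding sequence) is annotated as a TIR-NBS-LRR disease resistance protein. AT2G27440 (chr2:11735780-11735992) is a transcribed pseudogene, and its 213 bp held 23 CG sites against 5 or 6 in the other members shown. SPH1 was the only one of the 6 with CHG and CHH methylation (23.9% and 18.3% over all libraries). In the other members shown CHG was at most 2.61% and CHH at most 1.65%.

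In the ARLA1A region the CG methylation level (methylated calls as a percentage of all calls) was 58.1, 59.6 and 41.3% in the 3 libraries at 0 h, 61.4, 83.7 and 70% after stratification, 54.2, 57.8 and 66.7% after 6 h of light, 58.3, 63.3 and 50% after 24 h of light, and 72.9, 82.5 and 82.8% after 48 h of light. The libraries of 48 h SL were all above those of 0 h, by 26.4 points in the mean, and those of 48 h S were also all above 0 h, whereas the libraries of 6 h SL and 24 h SL overlapped it. The rise was unequal along the printed sequence, at 48.8 points in the last CG and 8.84 points in the third.
The ZFN2 region stood at 41.4, 44.1 and 44.7% in dry seed, 60.2, 60 and 58.5% after stratification, 66.7, 41.4 and 73.7% after 6 h of light, 80, 55.1 and 65.9% after 24 h of light, and 72.3, 59.0 and 72.5% after 48 h of light. After stratification its libraries did not overlap those of 0 h. The region was chosen by its levels at 0 h and 48 h SL. Times between can therefore lie between these ends without a change, and they give no time of onset. Its first CG, far from the next one at base 102, was the lowest of the 5 at every time, at 11.5, 16.7, 29.2, 11.1 and 12.5% in the order of the time points (18 to 48 calls, those of the 3 libraries summed).
The SPH1 region had 22.6, 33.9 and 42.1% in dry seed, 48.0, 45.9 and 36.9% after stratification, 38.2, 46.8 and 50.6% after 6 h of light, 55.0, 28.9 and 50% after 24 h of light, and 50, 59.2 and 54.1% after 48 h of light. The libraries at each time between overlapped those of 0 h, and those of 48 h S lay below all 3 of 48 h SL.

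In the DCL3 region the levels were 54.8, 58.3 and 60.9% in dry seed, 61.6, 48.9 and 58.2% after stratification, 60.6, 50 and 54.8% after 6 h of light, 61.5, 53.7 and 57.1% after 24 h of light, and 53.4, 36.8 and 23.1% after 48 h of light. The mean fell by 20.2 points from dry seed to 48 h SL with no such shift at the times between, and at 48 h SL the libraries differed widely and the highest lay just below the lowest of 0 h. In the printed sequence the first and the last CG had almost no methylated calls at any time (0 to 1.96%), and the 3 between them went from 94.1, 100 and 97.0% in dry seed to 57.1, 83.3 and 84.4% after 48 h of light (calls summed).
The AT5G17680 region had 41.0, 43.3 and 43.2% in dry seed, 19.1, 23.1 and 32.1% after stratification, 21.7, 40.4 and 12.2% after 6 h of light, 38.5, 42.1 and 20.7% after 24 h of light, and 27.1, 25 and 20.3% after 48 h of light. Its level was lower after stratification than in dry seed and then varied between libraries in the light.
The AT2G27440 region had 59.5, 61.7 and 56.5% in dry seed, 49.5, 50 and 49.6% after stratification, 57.7, 49.4 and 52.1% after 6 h of light, 34.0, 47.9 and 57.3% after 24 h of light, and 41.9, 34.4 and 47.0% after 48 h of light. Here too the 48 h S libraries were below all 3 of 0 h. These falls were also chosen by their levels at 0 h and 48 h SL, so the values give no time of onset. For the 26 members named for the size of their change the widest Wilson 95% interval of a single library spanned 23.4 to 40.1 points, which covers counting error only, so that single libraries place these levels roughly.

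**Figure D1:**
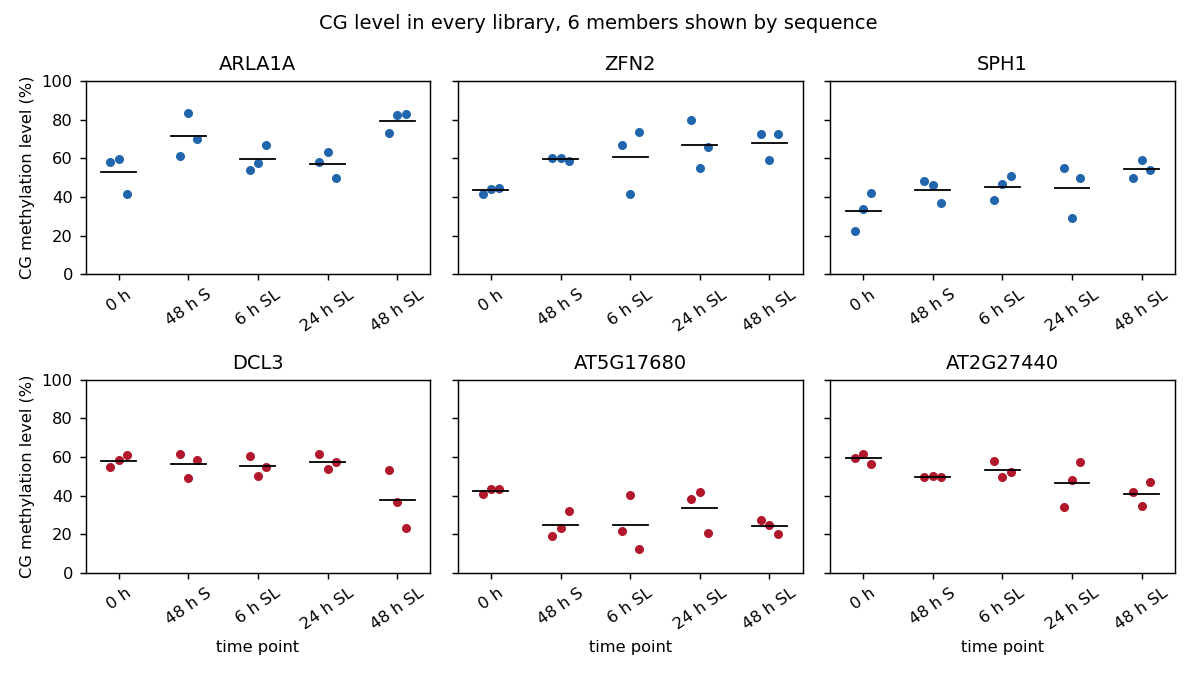
CG methylation level (%) in each of the 15 libraries, by time point, for the 6 members printed as sequence, rises in blue and falls in red, with the mean of 3 libraries as a bar. At 48 h SL the ARLA1A libraries lie between 72.9 and 82.8% and the DCL3 libraries between 23.1 and 53.4%.

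Sequencing depth ranged from 97238997 to 428839380 calls per library (2.27 to 10.01 calls per cytosine), and the 3 libraries of 24 h SL (2.27 to 3.91) and replicate 1 of 6 h SL (3.89) were the shallowest. The median kept member was 249 bp long, with 9 CG sites and 39 CG calls in its shallowest library. Replicate 1 of 48 h SL stood apart from the other 14 libraries, with 29.7% CG methylation over all cytosines against 24.6 to 28.5%, and it was the highest of the 3 libraries of its time point in most sums that follow. Counts at 48 h SL are therefore also given without it, as an alternative chosen after the data had been seen, and then rest on 2 libraries, which avoid overlap more easily than 3. Since DMR calling used the CG calls of these libraries, the CG changes of the members are described without a test. Counts are set beside the share of all tested windows that met the same condition. These are the 262768 windows of 300 bp with at least 20 CG calls in every library and at least 3 CG cytosines. Of them 159767 had under 2% CG methylation over all libraries and little room to change. An excess of members over all windows is in part set by this, so windows with like methylation are given beside some counts.

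Although no CHG or CHH DMR touched them, the members were of 2 kinds. In 6133 (68.0%) the CHG level was under 5% and the CHH level under 2% over all libraries, and these are called members with little non-CG methylation. In 2724 (30.2%) both levels were at or above these values, and these are called members with CHG and CHH methylation. The remaining 160 lay between. The division was set after the levels had been seen, and 349 members lay within 2 points of the CHG value or 1 point of the CHH value. The median CHG and CHH levels were 0.457% and 0.344% in the first kind and 43.1% and 16.3% in the second. None of the 5532 CG DMRs that overlapped a non-CG DMR and passed the same minimum fell under both values, and their medians were 47.5% and 21.4%.

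**Figure D2:**
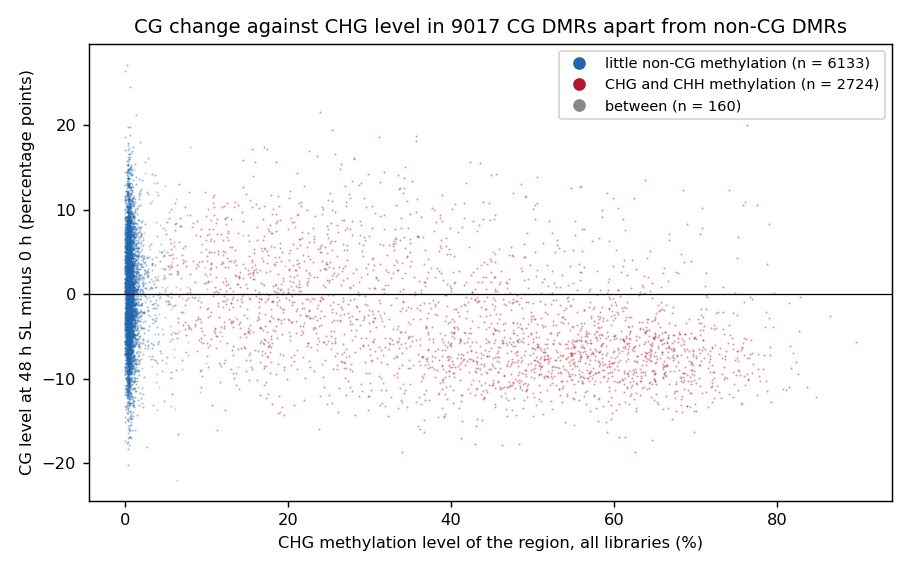
Each point is a member, with its CHG level over all libraries (%) on the x axis and its mean CG level at 48 h SL minus that at 0 h (percentage points) on the y axis, coloured by kind. The column of 6133 members near 0% CHG lies on both sides of no change (median 0.12 points, or -0.36 points without replicate 1 of 48 h SL), whereas the 2724 members with CHG and CHH methylation lie mainly below it (median -4.61 points).

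In members with little non-CG methylation the non-CG levels were close to those of unmethylated DNA. With each member counted equally, CHG was 0.474, 0.525 and 0.547% in the libraries of 0 h, and 0.698, 0.615 and 0.466% after 48 h of light. CHH was 0.286, 0.350 and 0.367% in dry seed, and 0.561, 0.541 and 0.346% after 48 h of light. Windows with under 2% CG methylation, which give the background of unconverted or miscalled cytosines, had 0.268% ± 0.0392 CHG and 0.314% ± 0.0488 CHH at 0 h, and 0.439% ± 0.115 and 0.594% ± 0.207 after 48 h of light (SD, n = 3). CHH in these members was thus at the background at both times. CHG was above it in the means, at 0.516% ± 0.0376 against 0.268% in dry seed and 0.593% ± 0.118 against 0.439% after 48 h of light.

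In the other kind CHH was lower late in germination even though no deposited CHH DMR lay there. CHH was 18.3, 17.9 and 18.4% in dry seed, 17.7, 18.4 and 18.3% after stratification, 19.0, 18.1 and 18.7% after 6 h of light, 16.7, 15.6 and 16.2% after 24 h of light, and 13.6, 11.9 and 11.3% after 48 h of light (2664 members with at least 20 CHH calls in every library). All libraries of 24 h SL were below all earlier ones, and those of 48 h SL were lower again. CHG in these members was 43.8, 43.8 and 44.2% in dry seed, 44.2, 44.3 and 44.3% after stratification, 44.9, 43.8 and 44.5% after 6 h of light, 42.2, 41.3 and 41.8% after 24 h of light, and 42.9, 39.9 and 39.5% after 48 h of light. At 48 h SL, CHG in replicate 1 was above that of all 24 h SL libraries and the others were below them. In the CG DMRs that overlapped a non-CG DMR, CHH was higher at 0 h (27.1% ± 0.360) and stood at 16.7% ± 1.18 after 48 h of light (SD, n = 3). Windows outside all DMRs with CHG and CHH methylation had 19.3% ± 0.286 and 13.9% ± 1.13, close to the members.

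**Figure D3:**
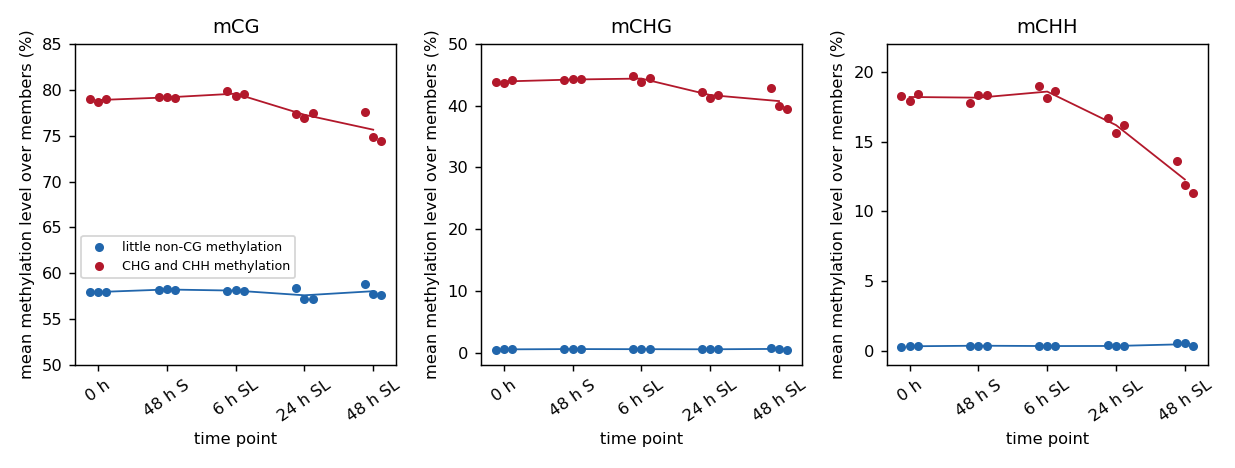
Mean methylation level (%) over members in the CG, CHG and CHH contexts, with 1 point for each library and a line through the means of 3 libraries at each time point. Members with CHG and CHH methylation (red) keep their CHH level near 18% up to 6 h SL and reach 11.3 to 13.6% after 48 h of light, while members with little non-CG methylation (blue) stay under 1% in both non-CG contexts.

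Over all members taken equally the CG level was nearly flat. It was 64.1, 64.0 and 64.1% in dry seed, 64.4, 64.4 and 64.3% after stratification, 64.5, 64.4 and 64.4% after 6 h of light, 63.9, 63.0 and 63.2% after 24 h of light, and 64.3, 62.7 and 62.5% after 48 h of light. The libraries up to 6 h SL lay between 64.0 and 64.5%, and at 24 h SL all were below them.
The kinds differed. In members with little non-CG methylation the CG level was 57.9, 58.0 and 57.9% in dry seed, 58.1, 58.1 and 58.1% after 6 h of light, and 58.8, 57.7 and 57.6% after 48 h of light, so that the latest libraries lay on either side of the earliest. In members with CHG and CHH methylation it was 79.0, 78.7 and 79.0% in dry seed, 79.9, 79.4 and 79.5% after 6 h of light, 77.4, 77.0 and 77.5% after 24 h of light, and 77.6, 74.9 and 74.4% after 48 h of light. All libraries from 24 h SL on were below all earlier ones in this kind.

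Single members moved little as well. The range of the 5 time point means was 8.91 points in the median member, 15.6 points at the 95th percentile and 28.5 points at most, and it reached 20 points in 57 of the 9017 members. The study's methods describe a filter on the size of the difference, after which it reports far fewer CG DMRs than the deposited list holds. The members were taken from that list, which therefore appears to precede the filter. The range was under 5 points in 1089 members (12.1%). The median SD between replicates was 4.54 points, and 48 h SL differed from 0 h by a median of 4.32 points in size. The SD is that of single libraries, and means of 3 libraries vary less, so the values cannot be compared directly. The SD and the change were 4.82 and 3.64 points in members with little non-CG methylation, and 3.79 and 6.14 points in members with CHG and CHH methylation.

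From 0 h to 48 h SL all 3 libraries of the later time lay above all 3 of the earlier in 677 members (7.51%), and below them in 1467 (16.3%), where all tested windows gave 3.34% and 6.17%. A mean change of at least 10 points upwards was found in 373 members (4.14%) and downwards in 587 (6.51%), against 0.906% and 1.26% of the windows. Windows with CG methylation alone outside all DMRs gave 2.54% and 3.08%, and those with CHG and CHH methylation 0.777% and 2.70%. A change of 20 points was reached by 5 members upwards and 2 downwards. Without replicate 1 of 48 h SL the non-overlapping counts were 1004 (11.1%) and 2206 (24.5%), beside 6.34% and 9.68% of the windows, and 946 members (10.5%) were at least 10 points lower, beside 2.35% of the windows. Leaving out any of the other libraries of 0 h or 48 h SL moved the count of non-overlapping rises by more than 1.5 times, to between 1056 and 1165.

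The balance of directions differed between the kinds of member. Of members with little non-CG methylation 504 (8.22%) were higher and 478 (7.79%) lower at 48 h SL, with a median change of 0.12 points. Without replicate 1 of 48 h SL the counts were 784 and 900 and the median -0.36 points, so that the side with more members turned with that library. Members with CHG and CHH methylation were higher in 163 cases (5.98%) and lower in 968 (35.5%), with a median change of -4.61 points. Without that library the counts were 206 and 1273 and the median -5.41 points. CG DMRs overlapping a non-CG DMR were higher in 13.5% and lower in 31.1% of cases. Windows with CG methylation alone outside all DMRs (27792) were higher in 4.50% and lower in 6.09%, and those with CHG and CHH methylation (11964) were higher in 1.75% and lower in 27.9%. The second kind made up 66.0% of the falling members and 30.2% of all kept members, and the first kind 74.4% of the rising members and 68.0% of all. The median rising member had 59.9% CG and 0.626% CHG methylation over all libraries, and the median falling member 90.2% and 42.2%.

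At every step some members had libraries that did not overlap. With 3 exchangeable libraries against 3 this occurs in 0.1 of arrangements, both directions together. From 0 h to 48 h S, 571 members (6.33%) were higher and 541 (6.00%) lower without overlap of libraries, where 3.63% and 2.45% of the windows were. From 48 h S to 6 h SL the counts were 651 (7.22%) and 514 (5.70%), beside 2.81% and 3.38%. From 6 h SL to 24 h SL they were 452 (5.01%) and 1021 (11.3%), beside 1.59% and 3.56%. From 24 h SL to 48 h SL they were 708 (7.85%) and 964 (10.7%), beside 3.42% and 3.45%. Falls outnumbered rises only in the last 2 steps. Without replicate 1 of 48 h SL the last step had 980 rises (10.9%) and 1569 falls (17.4%), beside 6.02% and 6.17% of the windows, with 750 and 729 in members with little non-CG methylation and 213 and 822 in those with CHG and CHH methylation. In members with CHG and CHH methylation the falls came to 17.8% after 24 h of light and 20.3% after 48 h of light, against 5.29% after 6 h of light, and 1361 of the 2724 (49.96%) had their lowest level at 48 h SL. The share was 59.2% in windows with CHG and CHH methylation outside all DMRs and 15.4% in all tested windows. In members with little non-CG methylation 28.5% had their lowest level at 24 h SL and 21.4% after 48 h of light, beside 27.7% and 22.6% of windows with CG methylation alone outside all DMRs.

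In members that separated 0 h from 48 h SL, the mean levels at the times between lay between those of the ends. The libraries of these times had entered the DMR calling but not this division by direction. In rising members with little non-CG methylation the mean level was 52.4% in dry seed, 56.2% after stratification, 56.3% after 6 h of light, 56.7% after 24 h of light and 61.3% after 48 h of light. In falling members of this kind it was 65.0, 61.8, 61.6, 60.5 and 56.5%. Both ends of these series were used to choose the members. The times between would therefore lie between them even without a change, and these series give no support to the directions. Falling members with CHG and CHH methylation had 92.1% in dry seed, 91.1% after stratification, 91.8% after 6 h of light, 88.8% after 24 h of light and 83.2% after 48 h of light, with hardly any change before 24 h SL.
Rising members with CHG and CHH methylation were chosen by their CG levels at both ends, so their CG rise follows from the choice. Their CG level went from 58.9% to 68.8% while CHH fell from 20.6% ± 0.507 in dry seed to 13.0% ± 1.28 after 48 h of light (SD, n = 3, 161 members with enough calls), and CHG was 28.0% ± 0.172 and 27.3% ± 1.10. In the falling members of this kind CHH went from 19.0% ± 0.276 to 13.5% ± 1.24 and CHG from 54.6% ± 0.376 to 50.6% ± 2.01. CHH was therefore lower at 48 h SL in both groups, whose CG directions were fixed by the choice of members.

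CG levels beside the members were examined in flanks of up to 600 bp outside each edge, leaving out the nearest 100 bp and every base in any deposited DMR. The contrast was the CG level in the flanks of the 677 rising members minus that in the flanks of the 1467 falling members, with 1 value per library. These bases were outside the called regions, and the libraries of 48 h S, 6 h SL and 24 h SL had not been used to divide the members by direction, although they had entered the DMR calling. The contrast was -44.5, -45.5 and -44.9 points after stratification, -47.0, -45.4 and -46.0 points after 6 h of light, and -42.3, -43.4 and -44.3 points after 24 h of light. At 48 h SL, which had divided the members and was not tested, it was -46.7, -43.0 and -41.8 points. All 24 h SL libraries were above all 6 earlier ones, by 2.205 points in the mean (exact 2-sided permutation test on 3 against 6 libraries, p = 0.0119, the smallest it can give, and 0.0357 after Benjamini-Hochberg adjustment over 3 comparisons). Against 6 h SL alone the difference was 2.78 points (exact permutation p = 0.1, the smallest for 3 against 3, adjusted 0.15), and between 6 h SL and 48 h S it was -1.15 points (exact permutation p = 0.2, adjusted 0.2).
With each flank counted equally, 24 h SL was 1.21 points above 48 h S and 6 h SL (exact permutation p = 0.0119, adjusted 0.0357). Falling members were mostly of the kind with CHG and CHH methylation, and rising members mostly of the other kind. The contrast therefore compares unlike DNA and cannot tell whether DNA beside the members moved with them. The change was in the flanks of the falling members. Their level was 66.6% ± 0.625 after stratification, 67.8% ± 1.32 after 6 h of light and 64.5% ± 0.887 after 24 h of light, whereas the flanks of rising members had 21.6% ± 0.152, 21.7% ± 0.516 and 21.2% ± 0.102 (SD, n = 3). The adjusted p was above 0.05 with flanks farther out, to 1000 bp (difference 2.41 points, adjusted p = 0.0714 by the exact permutation test) and with all members divided by the sign of their change (1.24 points, adjusted p = 0.15), and without 1 library, where it cannot be under 0.0536, it was between 0.0536 and 0.15 by the same exact test, with differences of 1.71 to 2.69 points.

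The kinds of member differed in their flanks too. With each flank counted equally, flanks of falling members with CHG and CHH methylation had 87.7% ± 0.193 CG methylation at 0 h, 88.1% ± 0.163 after 6 h of light, 86.0% ± 0.327 after 24 h of light and 83.8% ± 0.940 after 48 h of light. The difference from dry seed was -3.88 points at 48 h SL, beside -8.80 points in the median of the members themselves. Windows with CHG and CHH methylation outside all DMRs had 87.3% ± 0.186, 87.7% ± 0.147, 86.0% ± 0.324 and 84.2% ± 1.13 at the same times. Flanks of falling members with little non-CG methylation had 30.2% ± 0.0815, 30.2% ± 0.129, 29.8% ± 0.116 and 29.9% ± 0.2505 at these times (SD, n = 3). Flanks of rising members of this kind stood at 22.7% ± 0.0348 in dry seed and 22.9% ± 0.0976 after 48 h of light. Flanks of rising members with CHG and CHH methylation stood at 22.4% ± 0.112 in dry seed, so within this kind too the contrast compares unlike DNA. Within members with CHG and CHH methylation the contrast at 24 h SL was 1.86 points above that of 48 h S and 6 h SL (exact permutation p = 0.0119, adjusted 0.0357). Within members with little non-CG methylation it was 0.344 points above (exact permutation p = 0.0238, adjusted 0.0714), with overlapping libraries. The division by kind was added after the data had been seen.

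**Figure D4:**
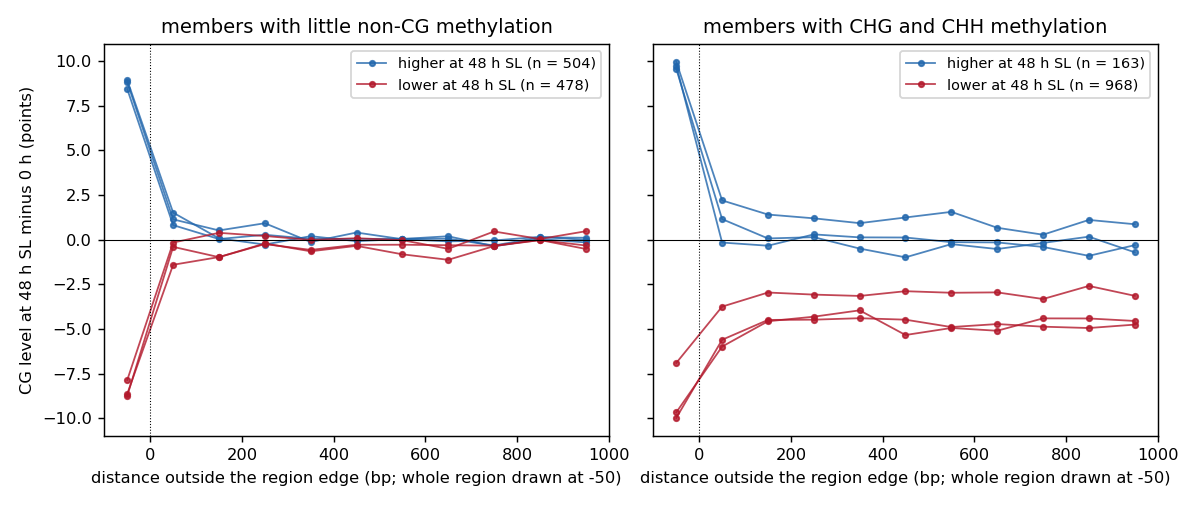
Mean CG level in each of the 3 libraries of 48 h SL minus that of 0 h (percentage points) against distance outside the member's edge in bins of 100 bp, with the member itself drawn at -50, for members that were higher (blue) or lower (red) at 48 h SL. Beside members with little non-CG methylation the change is 1.51 points or less in size from the first bin outwards, and beside falling members with CHG and CHH methylation it lies between -5.99 and -2.59 points out to the last bin.

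Neighbouring members were compared for the sign of their change. Of 1113 pairs of neighbouring members with little non-CG methylation in the same gene, 577 (51.8%) had the same sign of change from 0 h to 48 h SL, at a median distance of 760 bp. Of 454 neighbouring members with CHG and CHH methylation within 2000 bp, 365 (80.4%) had the same sign, at a median distance of 806 bp. In all members of these kinds 50.9% and 28.3% were higher at 48 h SL, so like signs are more frequent in the second kind without any link between neighbours, and no contrast is drawn. Between the strands of a region, which are read from different molecules, the sign was shared by 56.5% of 4022 members with little non-CG methylation and by 74.2% of 1991 members with CHG and CHH methylation that had at least 10 calls on each strand in every library. Pearson's r between the strands was 0.18 and 0.47 over these members, which share libraries and depth. The unequal balance of directions bears on these shares in the same way. Without replicate 1 of 48 h SL the sign was shared by 54.5% and 80.4% of the neighbours and by 54.4% and 71.8% between strands. The variance between replicates was 1.16 times what counting error alone gives in the median member of the first kind, and 1.53 times in the second.

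By position, members with little non-CG methylation were gene body regions. Of these, 6002 (97.9%) touched a protein-coding gene, 80.3% lay mainly in coding sequence, 14.8% in introns, 2.66% in UTRs and 1.22% in pseudogenes. They fell in 4889 genes, or 17.8% of the 27444 protein-coding genes of TAIR10.1, and 932 genes held more than 1. Windows with CG methylation alone outside all DMRs lay in genes as often (98.7%), but fewer of them mainly in coding sequence (67.1%) and more in introns (28.1%). The members were denser in CG sites (medians of 3.73 and 2.33 per 100 bp), and the part of this was not tested. The genes of the members were shorter (medians of 3398.5 and 4083 bp).
Their position in the gene was towards the end. The median centre lay at 63.5% of the gene's length from its start, and 68.7% lay past the midpoint, against 59.9% and 65.5% for the windows. Rising members lay further along (median 69.7%, with 74.9% past the midpoint) than falling ones (59.0% and 66.3%). Between 80 and 90% of the gene's length lay 114 of 490 rising members and 52 of 469 falling ones. Rising members were also more often mainly in a UTR (4.56% against 1.26%), and their genes were shorter (3281 against 3895 bp).

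**Figure D5:**
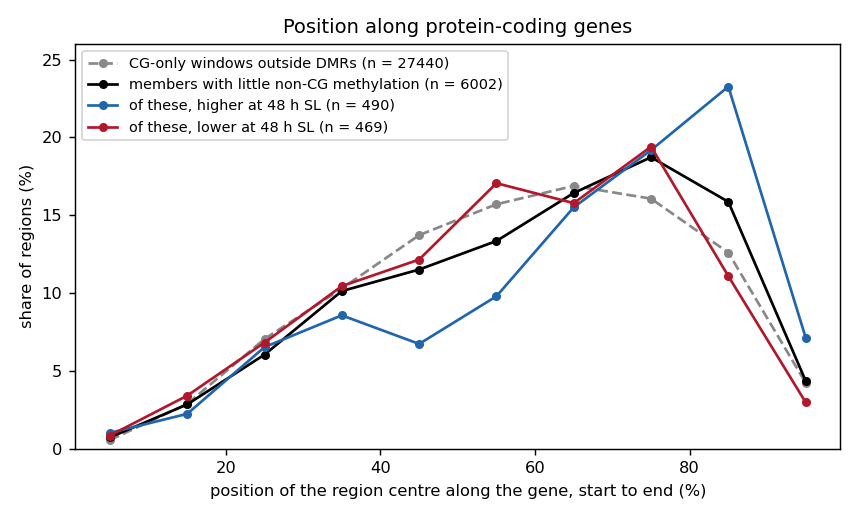
Share (%) of regions whose centre falls in each of 10 equal parts of a protein-coding gene, from its start (left) to its end (right), for members with little non-CG methylation, those of them higher (blue) or lower (red) at 48 h SL, and windows with CG methylation alone outside DMRs (grey). The rising members peak at 23.3% between 80 and 90% of the length, where the falling members have 11.1% and the windows 12.6%.

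Members with CHG and CHH methylation lay elsewhere. Only 16.9% touched a protein-coding gene, 33.4% lay mainly in pseudogenes, which in this annotation include transposon genes, 10.8% within 1000 bp upstream of a gene and 39.6% in other intergenic DNA. Falling members of this kind were in pseudogenes in 51.5% of cases and upstream of genes in 3.20%. Rising members of this kind had 4.29% in pseudogenes and 27.0% upstream of genes. Windows with CHG and CHH methylation outside all DMRs had 44.9% in pseudogenes and 6.42% upstream, nearer to the falling members. Falling members were also more fully methylated (median CG 92.0%, CHG 54.2%) than rising ones (64.2% and 26.3%). A CG level near 92.0% leaves little room to rise, and the part of this in the positions was not tested.

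The share of genes with a member of little non-CG methylation rose with gene length. Over 6 length classes with median lengths of 676, 1543, 2437, 3394, 4644 and 7193 bp it was 1.00, 7.22, 20.4, 31.4, 41.8 and 60.9%. Among product classes of the annotation it was 44.4% of 124 RNA helicases, 45.8% of 24 kinesins, 42.2% of 64 tRNA ligases and 32.1% of 1375 protein kinases. It was 10.4% of 652 F-box proteins, 8.33% of 108 ribosomal proteins and 3.33% of 120 MADS-box proteins. These classes differ in length (medians of 4291 bp for RNA helicases and 1211.5 bp for MADS-box genes), and the part of length was not tested. Members of this kind were higher in 482 and lower in 456 of the 4889 genes that held one. For protein kinases the counts were 57 and 46 of 442 genes. Of all members of this kind 8.22% were higher and 7.79% lower, beside 3.34% and 6.17% of all tested windows.
The most members in a gene, 5, were in AT1G67120, a gene of 26211 bp for a midasin-like protein, which was singled out after its values had been seen. In its member at chr1:25090395-25090620 the CG level was 92.8, 97.4 and 95.5% in dry seed and 81.6, 83.5 and 88.7% after 48 h of light, with 93.6, 94.6 and 94.7% still at 24 h SL. Of its 5 members 3 fell without overlap of libraries (-8.31, -8.11 and -10.6 points), as did 7.79% of all members with little non-CG methylation. These 3 had means of 94.9, 92.8 and 95.2% in dry seed, which left little room to rise. In the others, with overlapping libraries, the differences were -5.96 and -1.48 points.

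Genes of the DNA methylation machinery were among the carriers. Of a list of 18 such genes 13 held 23 members, while 19.5% of all protein-coding genes held 1. The listed genes are long (median 6209 bp), and in the length class with a median of 7193 bp 60.9% of genes held a member with little non-CG methylation. Of the 23 members 2 were higher and 3 lower at 48 h SL without overlap, beside 7.51% and 16.3% of all members, with a median change of -0.43 points. Besides the DCL3 intron described above, a second DCL3 member in coding sequence (chr3:15760155-15760776) went from 81.5, 80.7 and 84.4% in dry seed to 72.0, 78.1 and 75.2% after 48 h of light. A member in an intron of KYP (chr5:4503295-4503598), which encodes the histone methyltransferase that CMT3 depends on, went from 80, 84.7 and 85.2% to 76.4, 78.2 and 77.5%.
The rises were in DME and RDR2. In an intron of DME (chr5:1317424-1317582), a DNA demethylase known for imprinting in the endosperm, the level was 65.8, 43.6 and 70.2% in dry seed, 72.6, 71.3 and 79.6% after stratification, and 76.6, 81.5 and 74.6% after 48 h of light. In RDR2 (chr4:6783387-6784354), the RNA polymerase that makes the double-stranded RNA cut by DCL3, it went from 60.7, 64.6 and 64.7% to 68.3, 65.2 and 65.1%, a difference of 2.89 points. CMT3, CMT2, DRD1, NRPD1, AGO4, ROS1, IBM1, DRM2 and DDM1 held members whose libraries overlapped at the 2 times.
Both other lists are read against the same 19.5% of all genes and against 31.4% and 20.4% in the length classes nearest to them (medians of 3394 and 2437 bp). Of 10 light signalling genes (median length 3752.5 bp) 6 (PHYA, PHYB, CRY1, CRY2, PIF3 and DET1) held 9 members, none of which was separated, with changes from -10.1 points in CRY2 to 4.56 points in CRY1. Of 15 genes of abscisic acid and gibberellin action (median length 2322 bp) only GID1A, a gibberellin receptor, held a member (chr3:1431929-1432163), which went from 34.4, 44.6 and 39.6% in dry seed to 50, 47.7 and 46.4% after 48 h of light.

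The remaining members of the 10 largest rises were mixed in kind. The largest was in AT1G11170 (chr1:3743163-3743443, intron, touching a UTR), where the level was 38.3, 34.8 and 14.7% in dry seed and 52.9, 57.9 and 58.5% after 48 h of light, 27.2 points higher in the mean. In COP8 (AT5G42970, chr5:17239757-17240020, intron), a subunit of the COP9 signalosome that represses light development in the dark, it rose by 19.8 points, and in NEK1 (AT1G54510, chr1:20358567-20358823, mainly coding sequence), a NIMA-related kinase, by 18.8 points. The other rises lay outside protein-coding genes, at chr5:6390598-6390851 (21.3 points), chr2:18091979-18092111 (19.99 points), chr1:19372497-19372690 (19.4 points) and chr4:8860065-8860143 in the long noncoding RNA AT4G06330 (18.6 points). All but the first of these carried CHG and CHH methylation, and the chr2 region was the most heavily marked, with 76.3% CHG and 64.0% CHH beside 56.8% CG.
The remaining large falls were of both kinds as well. KIN10 (AT3G01090, chr3:32271-32390, coding sequence), the catalytic subunit of the energy-sensing kinase SnRK1, went from 65.7, 65.5 and 73.9% in dry seed to 51.7, 54.2 and 45.6% after 48 h of light, with 58.3, 51.0 and 58.9% after stratification. The region in AT1G26790 (chr1:9274138-9274213), a Dof-type zinc finger protein, fell by 17.4 points. That in AT1G80000 (chr1:30095032-30095357), annotated as a CASC3/Barentsz protein, fell by 17.5 points, and that in AT5G56850 (chr5:22985631-22985716), uncharacterised, fell by 17.6 points. Members with CHG and CHH methylation fell by 18.7 points at chr4:2186660-2187218, fell by 18.6 points in the pseudogene AT3G42431 (chr3:14549195-14549593) and fell by 17.7 points at chr5:11955877-11956417.

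At 24 h SL, 148 members (1.64%) were above and 245 (2.72%) below the libraries of both 6 h SL and 48 h SL, beside 0.602% and 0.637% of all tested windows. Windows outside all DMRs gave 1.15% and 1.56% with CG methylation alone, and 1.08% and 0.752% with CHG and CHH methylation. With 3 exchangeable libraries against 6 this occurs in 0.0119 of arrangements in each direction. Depth was low in the libraries of 24 h SL, and its part in these counts was not tested. The largest such rise was in emb2410 (AT2G25660, chr2:10920745-10920922), a gene needed in the embryo, with 44.2, 60 and 51.2% after 6 h of light, 82.1, 71.1 and 67.1% after 24 h of light, and 56.7, 47.2 and 56.1% after 48 h of light. In HPR (AT1G68010, chr1:25494946-25495029), which encodes the photorespiratory enzyme hydroxypyruvate reductase, a nearly unmethylated stretch had 3.45, 7.41 and 6.25% after 6 h of light, 35.5, 35.5 and 18.4% after 24 h of light, and 14.5, 11.9 and 7.14% after 48 h of light. AT3G07140 (chr3:2262965-2263198), a GPI transamidase subunit, was 18.8 points above 6 h SL and 28.5 points above 48 h SL. The largest dips were in AT1G67300, a transporter of the major facilitator superfamily (chr1:25194305-25194536, -15.8 points against 48 h SL), in IQD13, an IQ-domain protein (chr3:22050478-22050698, -15.8 points), and in AT5G17910 (chr5:5931801-5932041, -15.7 points). All 6 of these members had little non-CG methylation. At 48 h SL their means were closer to those of 6 h SL than at 24 h SL, which largely follows from how they were chosen.

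Members occurred on all chromosomes, with 1824, 1404, 2095, 1828 and 1866 on chromosomes 1 to 5. Members with little non-CG methylation were more frequent relative to windows with CG methylation alone on chromosomes 3 and 4 (27.8 and 31.7 per 100 windows) than on chromosomes 1, 2 and 5 (17.1, 19.7 and 19.6). Of all kept members 1465 had a non-CG DMR within 500 bp.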

How the data were processed

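The authors trimmed single-end MethylC-seq reads with Trim Galore 0.4.2, aligned them to TAIR10 with Bismark 0.16.3 and removed duplicates, and deposited for every cytosine the counts of methylated and unmethylated calls per library, without normalisation. The deposited DMR lists hold other values (coordinates only) from HOME. The study describes a later filter on the size of the difference, which the coordinates do not record. It reports far fewer CG DMRs after that filter, so the lists appear to precede it. All 42859750 cytosines of the table matched TAIR10.1, whose RefSeq annotation and sequence were used. Libraries held 600 ng DNA with 0.5% lambda DNA, which was not used here.

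Calls were summed per region and library (Python 3.11.15, numpy 2.4.6, pandas 2.3.3, SciPy 1.17.1). CG sums included the base after the deposited end, so that both strands of the last CG counted. Means over members count each member with at least 20 calls in every library equally, unless calls are said to be summed. CG-only windows had at least 20% CG, under 5% CHG and under 2% CHH. Depth differed between libraries, and 20 calls resolve a level only coarsely. On simulated calls, 87 of 100 members moved by 20 points and 35 of 100 moved by 10 points were separated, among 9017. The moved members were drawn from those of intermediate CG level, under a single assumed spread between libraries. These shares therefore do not cover members near full methylation. The single test was the exact permutation test of the flank contrast. Same-numbered replicates did not deviate together (r from -0.0327 to 0.0304 over 30 pairs). The labels do not say whether replicates were separate cultures, so p-values measure the spread between these libraries.

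The members and gene lists were chosen with earlier results of these data known. Named members were the 10 largest rises and 10 largest falls without overlapping libraries, the 3 largest differences each way of 24 h SL from both 6 h SL and 48 h SL, and separated members in the listed genes.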

Additional observations from a re-analysis of the deposited data

How the results depend on the processing

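Over the alternatives run, no designed result of the members changed direction except the flank difference between 6 h SL and 48 h S, which did not pass the test and was 0.0981 points within members with little non-CG methylation and 0.404 points within members with CHG and CHH methylation. The median change of members with little non-CG methylation, 0.12 points, was -0.36 points without 48 h SL replicate 1. A minimum of 50 calls left 2739 members, of which 250 were higher and 473 lower at 48 h SL. A minimum change of 5 points gave 1509 rises and 2447 falls, and 20 points gave 5 and 2. Leaving out 1 library of 0 h or 48 h SL gave 1004 to 1165 non-overlapping rises, 1827 to 2206 falls, 392 to 507 rises and 589 to 946 falls of 10 points, partly because fewer libraries overlap less easily. Without 48 h SL replicate 1 the first kind of member had 784 rises and 900 falls, an alternative chosen after seeing the data, as was the division by kind. With all calls summed the mean CG level was 65.0, 65.0, 65.4, 63.7 and 64.4% over the 5 time points, lowest at 24 h SL. The CHG level of all members with calls summed was 12.5% in dry seed and 12.2% after 48 h of light, and CHH 6.39% and 4.70%. Counting members equally gave 11.6% CHG and 5.82% CHH at 0 h, the median member had 0.561 and 0.714% CHG and 0.443 and 0.643% CHH at the 2 times, CHG without CCG was 13.1% and CHH less the background 6.07% in dry seed. The difference of the flank contrast at 24 h SL lost its call with flanks farther out, to 1000 bp (2.41 points), with members divided by sign (1.24 points) and within members with little non-CG methylation (0.344 points). Without 1 library it was 1.71 to 2.69 points, and the adjusted p cannot then be under 0.0536, so these settings say nothing about its stability. Against 6 h SL it was 2.28 to 3.27 points and between 6 h SL and 48 h S -1.52 to -0.70 points without 1 library. With labels permuted within replicate numbers (replicate block) the difference of 2.78 points had an exact permutation p of 0.25, the smallest possible, so the block decides nothing, and replicate numbers did not pair the libraries. The cause of these shifts was not tested. Depth limits single members, since counts of 20 to 50 calls cannot resolve changes of a few points.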
